A study of Mus musculus with 2 samples.

Results

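Endothelial cells (ECs) seal the vessel wall with adherens and tight junctions, and 10 mouse genes of these junctions were followed across endothelial classes: Cdh5, Pecam1, Cldn5, Esam, Ocln, Tjp1, Jam2, F11r, Cd99l2 and Cgnl1. They were chosen by name and role, with earlier results of these data known. All 10 were present among the 32285 genes of the matrices. The data are 2 libraries of single-cell RNA-seq, made with the 10x Genomics 3′ GEM-X v4 kit from live CD31+CD45- cells sorted out of YUMMER1.7 tumors, a mouse melanoma line. The Dnmt1iECKO library came from Cdh5CreERT2;Dnmt1fl/fl;ZsGreenlsl/lsl mice, in which tamoxifen, given before tumor challenge, switches on a Cre driven by the Cdh5 promoter and deletes the maintenance DNA methyltransferase Dnmt1 in ECs throughout the body. The control library is labelled C57BL/6, whereas the study describes controls that carry the Cdh5 Cre driver and the ZsGreen reporter, so whether the control cells held Cre is not settled here. Mice were female and 8 to 10 weeks old, and 3 mice were pooled for each library. The labels place the tumors under the skin, while the study describes lung tumors after tail vein injection. Both libraries held capillary ECs and epithelial cells with genes of lung cell types, counted below. With 1 library per condition, no difference between Dnmt1iECKO and control was tested, and its intervals cover counting error only.

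The control library held 9301 cells with a median of 8904 unique molecular identifiers (UMIs, 1 per captured transcript), and the Dnmt1iECKO library held 9522 cells with a median of 8762. The libraries shared 29 cell barcodes. After removal of cells with fewer than 500 detected genes, over 10% mitochondrial UMIs or a high doublet score, 7764 control and 7839 Dnmt1iECKO cells remained. ECs were cells with UMIs of at least 2 of Cdh5, Pecam1 and Cldn5 and no UMI of the leukocyte gene Ptprc, which left 5214 and 2173. Within these, a cell was placed in a class when both genes of a pair had a UMI and no other pair was complete. Ednrb and Car4 gave 1174 control and 365 Dnmt1iECKO aerocytes, the thin capillary ECs that face the air space of the lung. Kit and Bmp6 gave 2189 and 875 general capillary ECs, Slc6a2 and Selp gave 59 and 67 vein ECs, and Gja5 and Bmx gave 35 and 30 artery ECs. The remaining 1757 and 836 ECs were in no class, and 871 and 368 of these completed several pairs. Of the class markers that took no part in the gates, 4 of 4 for aerocytes, 3 of 4 for general capillary, 5 of 5 for vein and 5 of 6 for artery were highest in their own class in both libraries. The exceptions were Plvap, highest in vein, and Sox17, highest in general capillary ECs. Vein ECs were the deepest of the 4 classes, with medians of 14577 and 14617 UMIs per cell against 10050 and 10159 in general capillary ECs. All levels below are therefore in CPM, the UMIs of a gene for every 1000000 UMIs of its class in that library, with exact Poisson 95% intervals where given.

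Adherens junctions are built on VE-cadherin, the product of Cdh5, which binds its like on the neighbouring cell. Tight junctions are built on claudins, of which Cldn5 is the main endothelial member, together with occludin (Ocln) and the junctional adhesion molecules F11r (JAM-A), Jam2 (JAM-B) and the related Esam. Inside the cell, the scaffold ZO-1 (Tjp1) and paracingulin (Cgnl1) tie these proteins to the cytoskeleton. Pecam1 and Cd99l2 serve the passage of leukocytes between ECs, which takes place mainly across veins and the venules behind the capillaries. Of these genes, Cdh5, Pecam1 and Cldn5 helped to choose the cells, CD31 (the Pecam1 protein) was used in the sort, and the Cdh5 promoter drives the Cre.

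Dnmt1 copies methylation onto newly made DNA at CG dinucleotides. The CG in the bases before the start of a member are given here as sequence only. RefSeq promoters of GRCm38.p6 were matched for 6 of the 10 members (Cldn5, Ocln, Tjp1, F11r, Cd99l2 and Cgnl1). Those of Cldn5 and Cgnl1 are printed because these members differed in opposite directions between vein and general capillary ECs. Each line gives the 250 bases before the start site, 5′ to 3′ on the strand of the gene, with every CG in capitals. The Cldn5 sequence lies on the forward strand at chr16:18776597-18776846 and the Cgnl1 sequence on the reverse strand at chr9:71771603-71771852.
Cldn5: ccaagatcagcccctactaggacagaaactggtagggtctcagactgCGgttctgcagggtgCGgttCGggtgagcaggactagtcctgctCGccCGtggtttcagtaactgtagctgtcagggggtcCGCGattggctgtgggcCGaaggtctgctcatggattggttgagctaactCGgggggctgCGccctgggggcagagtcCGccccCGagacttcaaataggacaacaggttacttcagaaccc
Cgnl1: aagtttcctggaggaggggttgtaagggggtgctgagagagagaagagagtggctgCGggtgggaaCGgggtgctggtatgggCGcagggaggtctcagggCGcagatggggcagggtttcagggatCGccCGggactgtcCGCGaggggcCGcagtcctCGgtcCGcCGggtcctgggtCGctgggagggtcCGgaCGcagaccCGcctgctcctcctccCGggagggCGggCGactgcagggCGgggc
The Cldn5 promoter held 12 CG and the Cgnl1 promoter 20, F11r held 17, Tjp1 22 (at a start inside the gene as annotated here), Cd99l2 6, and the 2 Ocln start sites 14 and 22. At least 1 CG was found in 92.1% of the 32851 promoters of the table, with a median of 6. A CG in these letters is a description of the sequence, and no methylation was measured in these libraries.

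Cdh5 was lowest in vein ECs, with 576 CPM in the control and 708 in the Dnmt1iECKO library. General capillary ECs had 1232 and 1246, artery ECs 807 and 905, and aerocytes 1752 and 1946. The 4 classes had the same order in both libraries, with intervals that did not overlap between neighbours. In edgeR's quasi-likelihood test on the summed counts of 4 classes in 2 libraries, with library as a covariate and Benjamini-Hochberg adjustment over 11720 genes, Cdh5 was lower in vein than in general capillary ECs by a log2 fold change of -0.85 ± 0.10 (SE, adjusted p = 0.00026). The p-values of this test rest on how well class differences agree across the libraries, with 3 residual degrees of freedom. They also rest on the pooled spread of all genes, which adds 6.96 degrees of freedom. Cldn5 followed the same direction. Its levels were 410 and 446 in vein ECs, 919 and 848 in general capillary ECs, 1001 and 1105 in artery ECs and 2171 and 2260 in aerocytes, so that aerocytes stood above all others and vein ECs below. The edgeR log2 fold change of vein over general capillary was -0.94 ± 0.10 (adjusted p = 0.00015). Choosing ECs by Egfl7, Ramp2 and Tie1, in place of these members, gave -0.84 for Cdh5 and -0.94 for Cldn5.

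Pecam1 and Esam were flatter outside aerocytes. Pecam1 had 1021 and 984 CPM in vein, 1209 and 1189 in general capillary, 1138 and 1096 in artery ECs, and 1711 and 1832 in aerocytes. The edgeR difference of vein over general capillary, -0.15 ± 0.09 on the log2 scale, did not pass (adjusted p = 0.31). Esam had 341 and 333 in vein, 418 and 405 in general capillary, 332 and 391 in artery ECs and 608 and 640 in aerocytes. Vein over general capillary was -0.18 ± 0.11 for Esam and did not pass in edgeR either (adjusted p = 0.31). Against both capillary classes summed, the values were -0.33 for Pecam1 and -0.38 for Esam, and both passed (edgeR adjusted p = 0.017 and 0.039).

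Among the tight junction genes, the scaffold Tjp1 was lower in vein than in general capillary ECs and Cgnl1 was higher. Tjp1 had 394 and 383 CPM in vein, 647 and 626 in general capillary, 414 and 474 in artery ECs and 544 and 615 in aerocytes. The vein libraries lay below all capillary values, with an edgeR log2 fold change over general capillary of -0.61 ± 0.11 (adjusted p = 0.0029). Cgnl1 had 132 and 98.2 in vein, 86.8 and 72.2 in general capillary, 84.5 and 88.0 in artery ECs and 68.1 and 58.4 in aerocytes. Vein was the highest class in each library, although in the Dnmt1iECKO library its interval (81.5 to 117) overlapped that of artery ECs (61.7 to 122). The edgeR log2 fold change of Cgnl1 in vein over general capillary was 0.63 ± 0.13 (adjusted p = 0.0057). With classes assigned after thinning each cell to 2000 UMIs it was 0.42 and no longer passed (adjusted p = 0.093). Ocln and F11r did not pass in this comparison. Ocln had 33.6 and 29.2 CPM in vein and 27.3 and 27.5 in general capillary ECs, from 32 and 36 UMIs in vein. F11r had 130 and 135 in vein and 163 and 162 in general capillary ECs (edgeR log2 fold change -0.19 ± 0.11, adjusted p = 0.30).

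These 4 genes are also made by lung epithelium, whose markers differed between the classes. The summed level of 8 epithelial markers, among them Sftpc and Ager, was 2115 and 1157 CPM in general capillary ECs, 589 and 163 in aerocytes, 104 and 56.0 in vein and 33.8 and 26.9 in artery ECs, and Epcam stayed between 0 and 3.36 in these classes. Cells that held a UMI of Epcam or of the mural genes Cspg4 and Myh11 were then left out. Vein over general capillary was -0.68 for Tjp1 and 0.65 for Cgnl1, and both still passed in edgeR (adjusted p = 0.000624 and 0.00482). F11r was at -0.34 and Ocln at 0.25, and neither passed (edgeR adjusted p = 0.089 and 0.43). Epithelial levels after this step are not given, so how much epithelial RNA it removed is not shown.

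Jam2 showed the widest range of the 10 genes. Its product, JAM-B, binds JAM-C and an integrin on leukocytes. Jam2 had 31.9 and 33.1 CPM in aerocytes, 93.6 and 89.5 in general capillary ECs, 302 and 293 in artery ECs and 380 and 437 in vein ECs. The order was the same in both libraries. Vein and artery intervals overlapped in the control (341 to 421 against 254 to 356) and not in the Dnmt1iECKO library (401 to 476 against 243 to 351). By edgeR, vein over general capillary was 2.27 ± 0.11 on the log2 scale, a 4.81-fold difference (adjusted p = 7.8e-07). Each library alone gave 2.12 and 2.41. Jam2 lies at chr16:84774123-84825928 on the forward strand of GRCm38 and contains a small annotated gene, Gm25908, on the same strand. Cd99l2 was low in all classes, with 31.5 and 26.8 in vein and 35.4 and 31.0 in general capillary ECs from 30 and 33 UMIs in vein, and a difference was not detectable at this depth (edgeR log2 fold change -0.09 ± 0.20, adjusted p = 0.84).

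**Figure D1:**
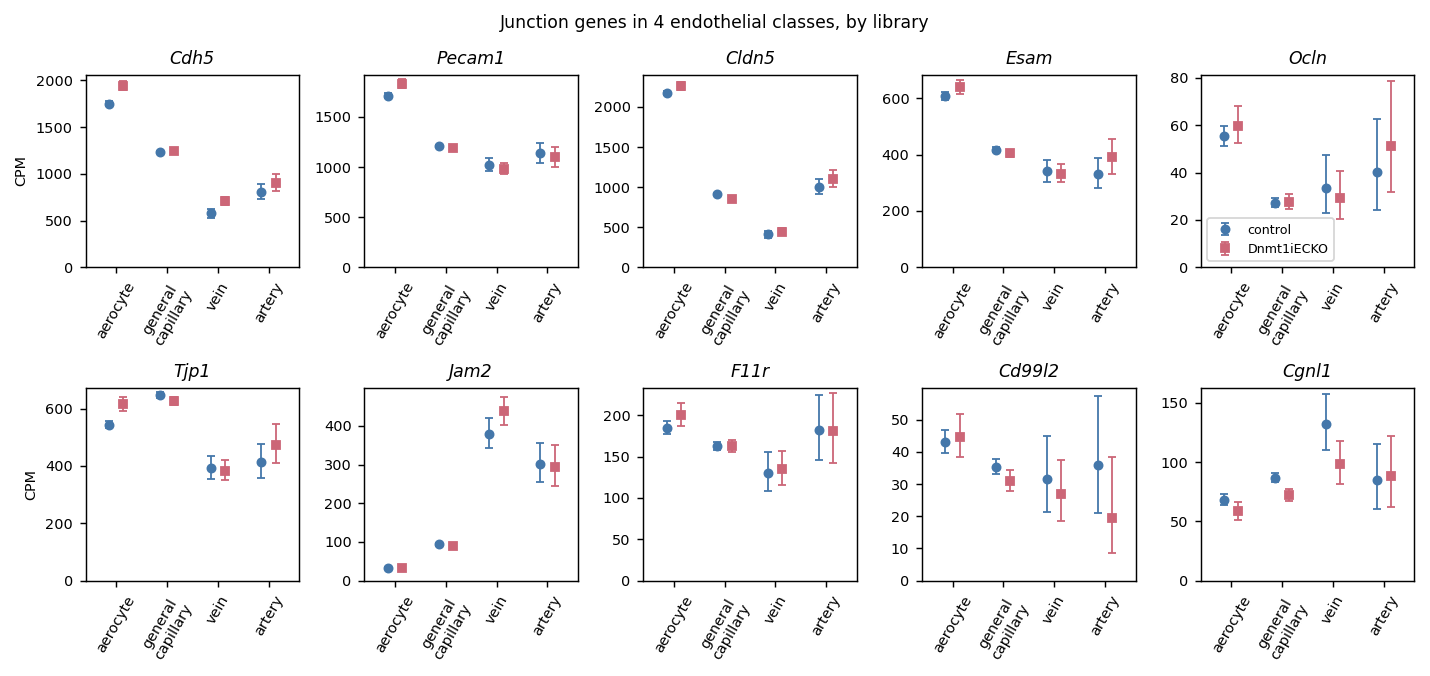
Level of each junction gene (CPM, linear axis from 0, scaled per gene) in aerocyte, general capillary, vein and artery ECs of the control (circles) and Dnmt1iECKO (squares) library, with exact Poisson 95% intervals. Jam2 is highest in vein in both libraries, at 380 and 437, while Cdh5 and Cldn5 are lowest there.

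In vein against general capillary ECs, 2 members (Jam2, Cgnl1) were thus higher and 3 (Cldn5, Cdh5, Tjp1) lower, beside 9.45% of all genes tested called higher, 8.85% lower and 18.3% either way. The median log2 fold change of the 10 members was -0.17, and that of all genes -0.02. Against aerocytes, 9 of the 10 passed, where 34.1% of all genes did (17.6% higher and 16.5% lower in vein). Jam2 (3.74 ± 0.12) and Cgnl1 (0.94 ± 0.13) were higher in vein. Cldn5 (-2.28 ± 0.11), Cdh5 (-1.44 ± 0.10), Esam (-0.80 ± 0.11), Ocln (-0.79 ± 0.18), Pecam1 (-0.73 ± 0.09), Tjp1 (-0.49 ± 0.11) and F11r (-0.45 ± 0.11) were lower, and Cd99l2 did not pass (-0.50 ± 0.20, edgeR adjusted p = 0.082). The call for F11r was lost with classes given by the largest summed pair (-0.20, adjusted p = 0.11) or assigned after thinning (-0.38, adjusted p = 0.071).

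The capillary classes differed as well. Aerocytes had 7 members above general capillary ECs and 2 below, with 35% of all genes called, 16.4% higher and 18.5% lower. Cldn5 (1.34 ± 0.10), Ocln (1.08 ± 0.12), Esam (0.62 ± 0.10), Cdh5 (0.59 ± 0.10) and Pecam1 (0.58 ± 0.09) were higher in aerocytes and Jam2 was lower (-1.47 ± 0.11). Cd99l2 (0.41 ± 0.13), F11r (0.26 ± 0.09) and Cgnl1 (-0.31 ± 0.11) passed narrowly, and each lost its call under at least 1 other setting, with adjusted p-values between 0.059 and 0.15. Tjp1 did not pass (-0.12 ± 0.10, edgeR adjusted p = 0.40). In artery against general capillary ECs, Jam2 (1.77 ± 0.13) and Ocln (0.80 ± 0.23) were higher and Cdh5 (-0.47 ± 0.10) and Tjp1 (-0.45 ± 0.12) lower, beside 13% of all genes, 7.09% higher and 5.94% lower. The Ocln call rested on 19 and 21 UMIs in artery ECs and was lost under 4 of 5 other fits (adjusted p between 0.051 and 0.14). The control artery ECs also held 640 CPM of pericyte and smooth muscle markers, against 14.7 in the Dnmt1iECKO library, and the part of these cells in the artery values was not tested.

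**Figure D2:**
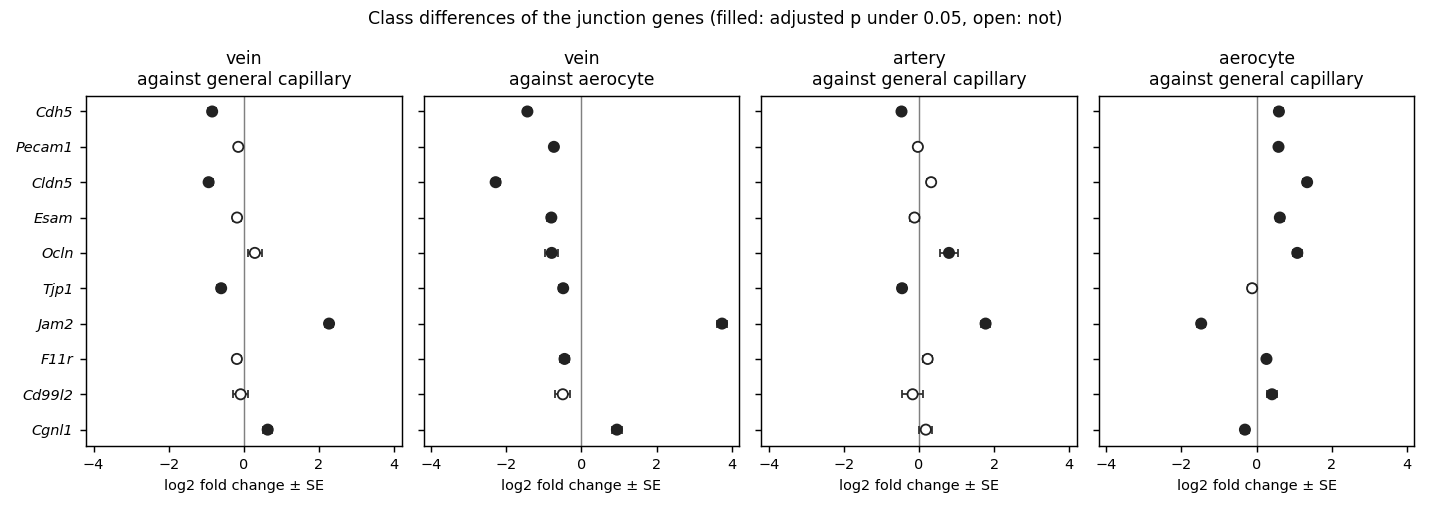
Log2 fold change of the 10 junction genes between endothelial classes (x axis, edgeR, bars are SE; filled points pass an adjusted p of 0.05). Jam2 runs against most other members, at 2.27 in vein over general capillary, 3.74 in vein over aerocyte and -1.47 in aerocyte over general capillary ECs.

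Within vein ECs, levels of Cgnl1 and Cldn5 differed with Ackr1 beyond counting error. Splitting these cells by Ackr1, the chemokine-binding receptor of venules, was chosen after their values had been seen. UMIs of Ackr1 were found in 6 of 59 control and 23 of 67 Dnmt1iECKO vein ECs. Cgnl1 was at 145 and 127 CPM in vein ECs without Ackr1 (intervals 120 to 174 and 102 to 156) and at 52.6 and 59.3 in those with it (21.2 to 108 and 40.3 to 84.2), so the groups did not overlap in either library. Cldn5 was at 453 and 506 without Ackr1 and at 143 and 364 with it, again apart in both libraries. Jam2 was at 363 and 409 without and 481 and 477 with Ackr1, with intervals that overlapped in each library. For Cgnl1, the general capillary levels given above lay within the intervals with Ackr1 and below those without it. A Cgnl1 level above general capillary ECs was thus seen in vein ECs without Ackr1 and not in those with it. The control group with Ackr1 is only 6 cells, so its intervals describe those cells.

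The share of cells with a UMI, after thinning every cell to 2000 UMIs, gave the same picture for Jam2. Jam2 was detected in 45.8% of control vein ECs (95% interval, Clopper-Pearson, 32.7 to 59.3) and 46.3% of Dnmt1iECKO vein ECs (34.0 to 58.9). It was found in 17.0% and 17.3% of general capillary ECs and in 5.06% and 6.94% of aerocytes. Cldn5 was detected in 45.8% and 49.3% of vein ECs against 78.9% and 74.9% of general capillary ECs, and Cdh5 in 59.3% and 77.6% against 89.7% and 88.6%. T cells of the same libraries, which should lack these genes, had a UMI of Cdh5 in 0.662% and 0.429%, of Cldn5 in 0 of 302 (which allows a share of up to 0.993%) and 0.214%, and of Jam2 in 0 of 302 and 0.0714%. All T cells had medians of 8808 and 8952 UMIs before thinning. Pecam1, which leukocytes also make, was found in 16.6% and 22.1% of T cells. The T cells were chosen with UMIs of fewer than 2 of Cdh5, Pecam1 and Cldn5, which can lower their shares of these members.

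Of 51 further junction genes in 5 lists, 43 could be tested between vein and general capillary ECs, and 6 were higher and 12 lower, beside 9.45% of all genes tested higher and 8.85% lower. Their median was -0.15 on the log2 scale, and that of all genes -0.02. The largest positive value among those that passed the test was that of Icam1, the adhesion molecule that arrests leukocytes, at 1398 and 1827 CPM in vein against 485 and 484 in general capillary ECs (edgeR log2 fold change 1.83 ± 0.13, adjusted p = 7.9e-06). Nectin2 (0.99 ± 0.25), the cerebral cavernous malformation partner Heg1 (0.99 ± 0.11), the nectin-like receptor Pvr (0.73 ± 0.19) and the catenin Pkp4 (0.66 ± 0.12) were higher as well. The polarity gene Pard6g (-2.37 ± 0.30), the connexin Gja4 (-1.81 ± 0.24), plakoglobin (Jup, -1.11 ± 0.11) and the GTPase Rap1a (-0.77 ± 0.12), which strengthens VE-cadherin contacts, were lower. Cxadr, a tight junction receptor of epithelium, had no UMI in vein ECs and 214 and 88 UMIs (8.05 and 8.08 CPM) in general capillary ECs. Against 3 UMIs per library, the limit that a count of 0 allows, it was at least 2.56-fold and 3.32-fold higher in general capillary ECs, the class with the most epithelial marker UMIs. By list, the adherens junction genes had 3 higher and 3 lower of 12 tested, tight junction genes 0 and 3 of 12, adhesion and transmigration genes 2 and 2 of 5, gap junction genes 0 and 1 of 3, and junction regulators 1 and 3 of 11.

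The targeted gene was read first in the comparison of Dnmt1iECKO with control. Dnmt1 was at 50.3 CPM in control ECs and 32.7 in Dnmt1iECKO ECs, with 53.8 and 26.7 in general capillary ECs and 48.8 and 32.1 in aerocytes. In vein ECs it was at 35.7 and 39.0 from 34 and 48 UMIs, so a lower level was not detectable in the vein cells of the library labelled Dnmt1iECKO (log2 ratio 0.13, -0.54 to 0.81). Vein ECs without Ackr1 had 32 and 16 UMIs of Dnmt1 (39.0 and 22.5 CPM) and those with Ackr1 had 2 and 32 (15.0 and 61.3 CPM). The tags of this kit come from the 3′ end of transcripts, and which exons were floxed is not given in the sources used here, so these tags do not check the deletion itself. Directions in vein ECs below are therefore those between the libraries as labelled.

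No member differed by 1.5-fold or more between the libraries in any of the 4 classes, among members with at least 100 UMIs in both together. This held for all 10 in aerocytes and in general capillary ECs, for 8 in vein and for 7 in artery ECs, where 5.76%, 5.83%, 7.89% and 10.4% of all genes with that minimum passed. Smaller differences exceeded counting error. Cgnl1 was lower in Dnmt1iECKO aerocytes (log2 ratio -0.22, interval -0.44 to -0.01), general capillary ECs (-0.27, -0.38 to -0.15) and vein ECs (-0.43, -0.80 to -0.06). It was lower in the same direction under all other settings in general capillary and vein ECs, with ranges of -0.45 to -0.24 and -0.49 to -0.10. In aerocytes it turned to 0.07 with classes assigned after thinning. Within vein ECs without Ackr1 the log2 ratio of Cgnl1 was -0.19 (-0.61 to 0.21), and the part of the larger share of cells with Ackr1 in the Dnmt1iECKO library was not tested. In vein ECs with Ackr1, 6 and 23 cells, Cldn5 was the 1 member past 1.5-fold, with 19 and 190 UMIs and a log2 ratio of 1.35 (0.67 to 2.11), where 28.7% of all genes with the minimum passed.

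Cdh5 was higher in Dnmt1iECKO vein ECs (0.30, 0.14 to 0.46) and aerocytes (0.15, 0.11 to 0.19), and at 0.02 (-0.01 to 0.05) in general capillary ECs. Vein ECs without Ackr1 gave 0.43 (0.25 to 0.62) for Cdh5 and those with Ackr1 -0.09 (-0.43 to 0.26). Jam2 was higher in vein ECs of the Dnmt1iECKO library (0.20, 0.01 to 0.40), at 0.05 (-0.25 to 0.34) in aerocytes and at -0.07 (-0.17 to 0.04) in general capillary ECs. By the levels given above, Jam2 was higher in vein ECs without Ackr1 and nearly level in those with it. In the overlapping ECs with Selp and Ackr1, given below, Jam2 was lower in the Dnmt1iECKO library. Tjp1 was at 0.18 (0.11 to 0.24) in aerocytes and -0.05 (-0.09 to -0.01) in general capillary ECs, and Cldn5 at 0.06 (0.02 to 0.09) and -0.12 (-0.15 to -0.08). Pecam1 differed in aerocytes by 0.10 (0.06 to 0.14), Esam there by 0.07 (0.01 to 0.14), and Cd99l2 in general capillary ECs by -0.19 (-0.38 to -0.01). The intervals of Ocln and F11r included 0 in all 4 classes, as did those of all members in artery ECs.

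**Figure D3:**
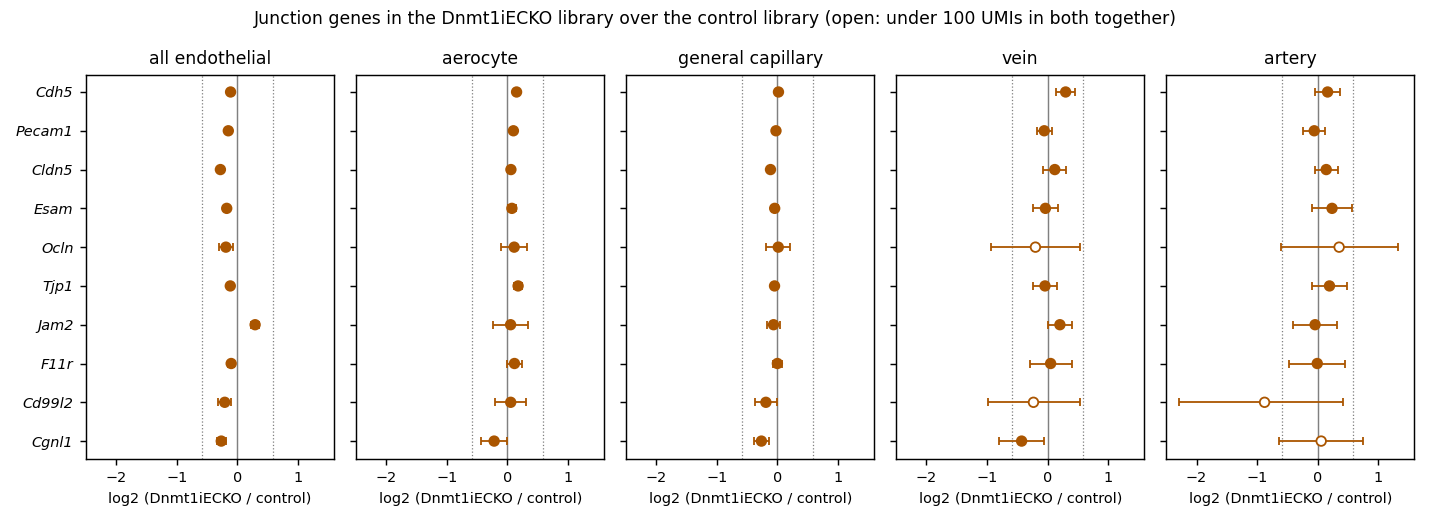
Log2 ratio of CPM, Dnmt1iECKO over control library (x axis), for each junction gene in all ECs and in 4 classes, with exact 95% counting intervals; dotted lines mark 1.5-fold and open points have under 100 UMIs in both libraries together. Filled points stay within the dotted lines, and Cgnl1 lies at -0.22, -0.27 and -0.43 in aerocytes, general capillary and vein ECs.

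Summed over all ECs, 9 members were lower in the Dnmt1iECKO library, between -0.10 (F11r) and -0.28 (Cldn5), and Jam2 was higher at 0.29 (0.23 to 0.36). None reached 1.5-fold, where 9.45% of all genes did. The libraries differed in their mix of classes, with 1.13% vein ECs in the control and 3.08% in the Dnmt1iECKO library, and 22.5% and 16.8% aerocytes. The classes were also weighted as in the control library, with the ECs in no class counted as a further class. These unclassed cells were 33.7% of control and 38.5% of Dnmt1iECKO ECs. They had Cdh5 at 1189 CPM in the control and 1036 in the Dnmt1iECKO library, and Cldn5 at 1063 and 818. Their lower Cdh5 and Cldn5 levels thus enter the weighted values. The weighting gave 0.06 for Jam2, -0.11 for Cldn5 and 0.00016 for Cdh5, while Cgnl1 stayed at -0.28. In these sorted cells, a lower level over all ECs can come from fewer cells of a class or from less RNA per cell, and the class values above tell these apart only as far as the gates do. Cells with under 500 CPM of Egfl7, Ramp2 and Tie1 together, which are low in other EC genes, were left out in a further setting chosen after the data were seen. Jam2 was then at 0.39, Cldn5 at -0.19 and Cgnl1 at -0.20 over all ECs.

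Of the 50 list genes found in the files, 3 of 31 with 100 UMIs passed 1.5-fold in vein ECs, 1 of 44 in general capillary ECs, 3 of 38 in aerocytes and 0 of 23 in artery ECs, against the shares of all genes given above. In vein ECs, Pvr was at 115 and 193 CPM (log2 ratio 0.74, 0.41 to 1.08) and the scaffold Magi1 at 136 and 222 (0.71, 0.40 to 1.02), while Gja4 was at 106 and 64.9 (-0.71, -1.15 to -0.27). In general capillary ECs the tight junction protein cingulin (Cgn) was at 3.39 and 6.15 (0.86, 0.38 to 1.33). Cgn and Cgnl1, the gene of its paralog, thus lay in opposite directions in that class, a difference that was not tested. The Cgn values rest on 90 and 67 UMIs. They come from the class with the most epithelial marker UMIs (2115 and 1157 CPM), and the epithelial part of Cgn was not tested.

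Proliferating ECs, with UMIs of Mki67 and Top2a, were 158 control and 91 Dnmt1iECKO cells. In these, 8 of the 10 members were at least 1.5-fold lower in the Dnmt1iECKO library, where 10% of all genes with 100 UMIs were. Cdh5 was at 744 and 431 CPM and Pecam1 at 799 and 511. This result changed when cells with under 500 CPM of Egfl7, Ramp2 and Tie1 together were left out. That rule keeps cells high in other EC genes, so member levels after it follow in part from the rule. In the Dnmt1iECKO library the class held 4904597 UMIs with the low cells and 2126672 without (control 4876392 and 3442351). Summed fibroblast markers there were at 448 CPM with them and 56.9 without (control 472 and 137). The part of fibroblast RNA in the library difference was not tested. Without them, 142 of 158 control and 70 of 91 Dnmt1iECKO cells remained, and Cdh5 was at 1037 and 967 (log2 ratio -0.10, -0.18 to -0.02) and Pecam1 at 1113 and 1089.5 (-0.03, -0.11 to 0.04). Only Ocln, at 24.1 and 9.40 from 83 and 20 UMIs, was then still 1.5-fold lower, where 3.1% of all genes were, and Jam2 was higher at 98.8 and 148 (0.58, 0.35 to 0.81). In ECs with UMIs of the interferon-induced genes Ubd and Cxcl9, 86 and 92 cells, no member passed 1.5-fold, where 9.24% of all genes did. Cdh5 was at 1018 and 704 (-0.53, -0.62 to -0.45) there, and at 1224 and 987 without the cells low in Egfl7, Ramp2 and Tie1 (-0.31, -0.39 to -0.23).

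Lymphatic ECs, by Prox1 and Mmrn1, numbered 39 and 21. Jam2 was at 20.5 and 25.4 CPM, Esam at 55.2 and 147 and Ocln at 7.88 and 12.7, while F11r was at 229 and 226. Summed aerocyte markers in these cells were at 218 CPM in the control and 971 in the Dnmt1iECKO library. Fibroblast markers were at 17.3 and 353. The part of such RNA in the lymphatic values was not tested. ECs with both Selp and Ackr1, 18 and 46 cells that in part are also vein ECs, had Jam2 at 493 and 370, Cldn5 at 275 and 345 and Cgnl1 at 73.6 and 60.7. The direction of Jam2 between the libraries was thus opposite to that in vein ECs.

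The same libraries hold cells of other types that passed the sort, taken here among cells with UMIs of fewer than 2 of Cdh5, Pecam1 and Cldn5. Low levels of these members in them follow in part from that rule. T cells were 307 in the control and 1413 in the Dnmt1iECKO library, and fibroblasts 161 and 288. Epithelial cells were taken as cells without Ptprc and with Sftpc or Ager at 0.5% or more of their UMIs, a rule chosen after the data were seen because cells picked by single UMIs of Epcam and Sftpc were rich in leukocyte genes. Ager-high cells, 69 and 31 in number, had Tjp1 at 572 and 657 CPM, F11r at 430 and 435, Ocln at 136 and 185, Cgnl1 at 191 and 213 and Esam at 181 and 260. The level of each of F11r, Ocln and Cgnl1 was thus above that in all 4 EC classes. Cdh5 there was at 7.82 and 3.13 and Jam2 at 3.13 and 3.13. Sftpc-high cells, 93 and 38, had Cgnl1 at 202 and 144 and Jam2 at 0.738 and 2.36. In fibroblasts Cgnl1 was at 76.2 and 76.5 and Jam2 at 20.7 and 18.0, and in macrophages F11r was at 67.5 and 67.6.

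**Figure D4:**
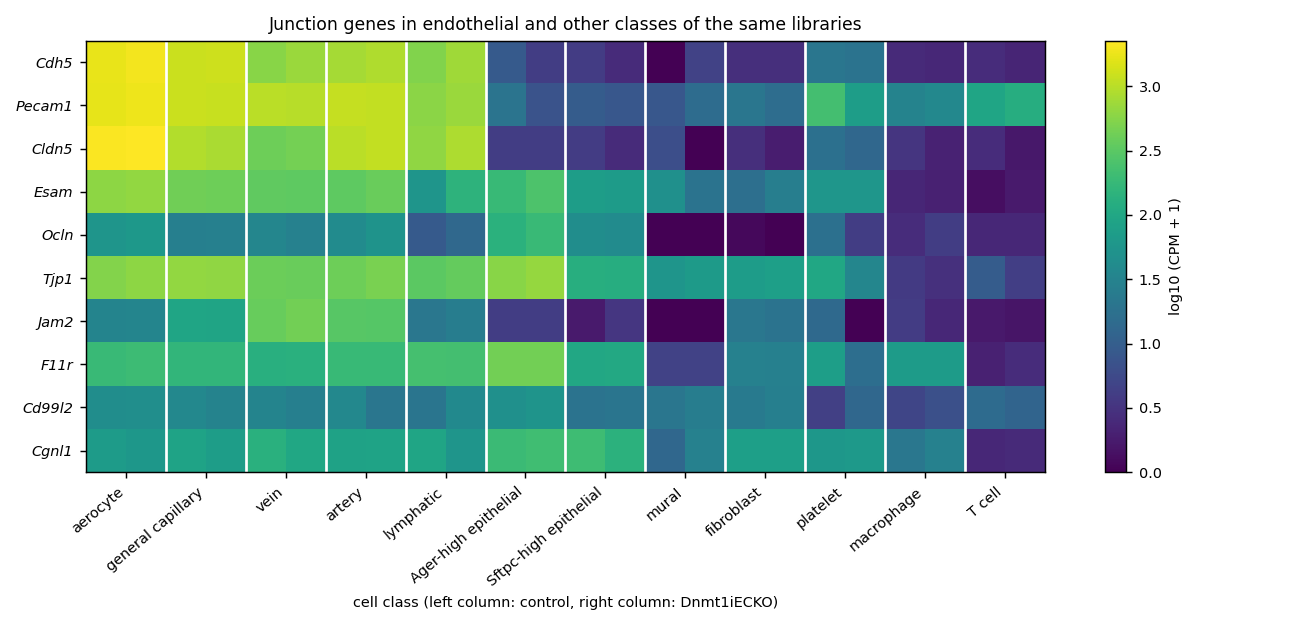
Level of the 10 junction genes on a log10 scale (colour, CPM plus 1) in EC classes and in other cells of the same libraries, with the control in the left and Dnmt1iECKO in the right column of each class. Colours are read along a row and are not compared between genes. Cdh5 and Cldn5 are below 20 in all cells other than ECs, which were chosen with UMIs of fewer than 2 of Cdh5, Pecam1 and Cldn5. F11r and Ocln reach their highest levels in Ager-high epithelial cells. Cgnl1 is highest in Ager-high or Sftpc-high cells.

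Over the 30 sums of 15 cell classes in 2 libraries, the genes most like each member were found by Pearson's r of log2(CPM + 10). Jam2 was closest to Nos3 (r = 0.96), the endothelial nitric oxide synthase, and to the lymphatic growth factor Vegfc (0.94). Cdh5 was closest to Arap3 and Cldn5, each at 0.99, and Pecam1 to Icam2 (0.98). Cgnl1 had no neighbour as close, with 0.86 for March8. Classes of a library share its depth and free RNA, and ECs and other cells stand far apart. Cdh5, Pecam1 and Cldn5 also served to separate ECs from the other cells, so their r values follow in part from that choice. All these values describe the order of the classes and carry no test.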

How the data were processed

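The authors deposited matrices of UMI counts, 1 control and 1 Dnmt1iECKO, which Cell Ranger 9.0.1 had written for the mm10 genome after its own cell calling, without scaling. The study pooled tumors of 3 mice in each. The study's stated minimum of 9000 detected genes would leave 28 and 52 cells and was replaced by 500. Doublets were the highest Scrublet scores at 0.4% per 1000 cells (257 and 263 removed, scanpy 1.11.5). Counts were summed per class and library. Classes were compared with edgeR 4.0.16 (filterByExpr, TMM scaling, adjusted p under 0.05), with DESeq2 1.42.0 as an alternative. Libraries were compared by ratios with exact intervals. Total UMIs per class and library ran from 408933 to 26571377. Scripts were tested on simulated data. All 10 members are named. List genes were named by the 5 highest and 5 lowest calls of vein over general capillary and the 3 highest and 3 lowest past 1.5-fold between libraries. The most similar genes had at least 500 UMIs. Members and lists were chosen with earlier results of these data known. One list gene, Cd99, was not matched by symbol. Tjp1 and Jam2 overlap other annotated genes on the same strand, and their counts are uncertain to that extent.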

Additional observations from a re-analysis of the deposited data

Results flagged for a closer look

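Knockout over control ratios of opposite sign in aerocytes and general capillary ECs, each beyond counting error, were found for Cldn5 and Tjp1. For Cldn5 the log2 ratio was 0.06 in aerocytes and -0.12 in general capillary ECs, a difference of 0.17. The aerocyte value turned to -0.04 with classes given by the largest summed pair and to -0.02 with classes assigned after thinning. For Tjp1 the ratio was 0.18 in aerocytes and -0.05 in general capillary ECs, a difference of 0.22. With 1 library per condition neither difference was tested, and both are small beside the class differences of the same genes.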

How the results depend on the processing

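Calls of the class comparisons stayed within 1.5 times of the reported counts under all alternatives run. Of 10 members, vein against general capillary called 4 to 7, vein against aerocyte 8 to 10, artery against general capillary 3 to 5 and aerocyte against general capillary 7 to 9. The uncalled Ocln value of vein over general capillary turned to -0.078 with classes assigned after thinning and -0.10 against both capillary classes summed. Without TMM, on totals alone, the median of all genes in vein over general capillary shifted by -0.11 and 39.8% of called genes were higher in vein (903 against 1365), where TMM gave 51.6% (1107 against 1037), and the same number of members, 5, passed. With 1 library left out, which leaves no test, vein over general capillary ran from 2.12 to 2.41 for Jam2, 0.57 to 0.70 for Cgnl1, -1.07 to -0.81 for Cldn5 and -0.62 to -0.58 for Tjp1.

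Members at least 1.5-fold apart between Dnmt1iECKO and control numbered 0, but 2 with classes assigned after thinning, both in artery ECs of 6 and 7 cells, 1 at a lower fold limit (Cgnl1 in vein) and 1 with a minimum of 20 UMIs (Cd99l2 in artery). Of the ratios whose counting interval excluded 0, those that changed sign were Cdh5 over all ECs (0.00016 with the class mix of the control), F11r over all ECs (0.00981 without cells with Epcam, Cspg4 or Myh11), and in aerocytes Cldn5 (-0.0424 with the largest summed pair and -0.0216 after thinning), Esam (-0.0199 with the largest summed pair) and Cgnl1 (0.0728 after thinning). Ratios whose interval included 0 changed sign as well, in each of the 4 classes. The causes were not tested. Members with a higher share of positive cells in vein than in general capillary ECs in both libraries were 3 after thinning to 2000 UMIs and 7 without thinning, where vein cells were deeper. No paired analysis was possible because each condition has 1 library. Low UMI numbers limit Ocln and Cd99l2 in vein and artery ECs, and the 35 and 30 artery cells limit all artery values.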
